A study of Caenorhabditis elegans with 32 samples.

Results

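The 10 genes of Caenorhabditis elegans described here are oma-1, oma-2, pos-1, mex-3, spn-4, puf-5, puf-11, gld-1, rme-2 and egg-6. All but egg-6 encode regulators or, for rme-2, a surface protein of the oocyte and the early embryo. egg-6 encodes an extracellular protein known from the apical matrix of epithelia. The 10 were chosen by name with earlier results of these data known, as were the lists of other genes used below. They were found through their WBGene identifiers in the WBcel235 annotation. They are 10 of the 46932 genes in the deposited table of 22G RNA counts. Small RNA of whole worms was sequenced in 16 groups of 2 libraries, 32 libraries in all. The groups were hrde-1 mutants with a hypoxia label, hrde-1 mutants under normoxia, wild type (WT) with a hypoxia label and WT under normoxia, each sampled in parents (P0) and in 3 further generations (F1 to F3). The allele of hrde-1 was not given in the sources used here. For hypoxia, animals at the fourth larval stage (L4) spent 16 h at 0.1% oxygen and 20 °C and then went back to ambient oxygen of about 20%. The labels attach hypoxia to every generation and do not say which generations were exposed themselves. They also do not say that the 2 libraries of a group came from separate cultures, so every p-value measures only the spread between these libraries, which may be technical. Tests over several generations count the libraries of each generation as separate, although later generations may descend from the earlier ones sampled.

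22G RNAs are short antisense RNAs that RNA-dependent RNA polymerases copy from target transcripts in the worm. In the germline some are bound by the Argonaute CSR-1, whose targets are expressed genes, and others by the nuclear Argonaute HRDE-1, which silences its targets in the nucleus and carries silencing over generations. A count on a gene is small RNA against that gene and not the level of its transcript, and the table does not tell which Argonaute held it. Counts are given as CPM, 22G counts relative to the TMM-scaled total of each library.

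All but gld-1 had counts of 22G RNA in nearly every library, and gld-1 was listed at 0 in all. Levels can be compared between genes only per exon length, as CPM per kilobase (kb) of exon, and these are given as the mean ± SD over the 32 libraries. The median protein-coding gene with a count had 2.01 CPM per kb, and the 9 genes with counts lay between the 72.3rd and the 94.0th percentile of protein-coding genes.

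oma-1 and oma-2 encode partly redundant CCCH zinc-finger proteins that are needed for oocyte maturation, and oma-1 is a common target gene in assays of inherited RNA interference. oma-1 (WBGene00003864, chromosome IV, 8888976 to 8890999, plus strand) had 13.0 ± 6.51 CPM per kb. oma-2 (WBGene00003865, chromosome V, 8029439 to 8031214, plus strand) had 10.001 ± 4.77 CPM per kb, the lowest level of the genes with counts. pos-1 encodes a maternal CCCH zinc-finger protein, mex-3 a KH-domain protein and spn-4 a protein with an RNA recognition motif; these bind maternal mRNA and pattern the early embryo. pos-1 (WBGene00004078, chromosome V, 8414086 to 8415254, plus strand) had 12.9 ± 7.68 CPM per kb. mex-3 (WBGene00003229, chromosome I, 127285 to 134270, plus strand) had 13.4 ± 4.17 CPM per kb. spn-4 (WBGene00004984, chromosome V, 6783187 to 6784903, minus strand) had 28.1 ± 8.29 CPM per kb, and 8 bases of its exons overlap ZC404.15 on the other strand.

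puf-5 and puf-11 belong to the Pumilio family of translational repressors and act in oocytes. puf-5 (WBGene00004241, chromosome II, 8575541 to 8577787, plus strand) had 41.6 ± 13.1 CPM per kb. puf-11 (WBGene00022257, chromosome IV, 6421585 to 6423497, plus strand) had 51.4 ± 19.5 CPM per kb; it is a near-identical copy of puf-3, and how reads shared by the 2 copies were counted is not given in the sources used here. rme-2 encodes the yolk receptor of oocytes, a member of the LDL receptor family (WBGene00004374, chromosome IV, 5470026 to 5473174, plus strand), and had 40.2 ± 16.3 CPM per kb. egg-6 (WBGene00010621, chromosome I, 8676666 to 8681325, minus strand), which encodes an extracellular leucine-rich repeat protein known from the apical matrix of epithelia, had 64.6 ± 15.9 CPM per kb, the highest level.

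gld-1, which encodes a KH-domain translational repressor of the STAR family that represses many maternal mRNAs (WBGene00001595, chromosome I, 7695681 to 7698222, plus strand), had a count of 0 in all 32 libraries. A count of 0 allows up to 3 counts, which is 0.0640 CPM over all libraries together and 1.11 to 6.93 CPM in a single library, counting error only. How genes and reads were annotated and filtered before counting is not known here. A 0 from that step and an absence of 22G RNA cannot be told apart. No annotated gene overlaps gld-1, and its neighbours had counts: T23G11.4, which ends 449 bases before it, had 1684 counts over all libraries, and T23G11.10, which starts 79 bases after it, had 26. No count in any library was also the case for 3199 of the 19981 protein-coding genes in the table (16.0%). Of the 54 other oocyte and maternal genes described below, only perm-4 and sqd-1 had none. gld-1 had no value to test in any comparison, and every count of genes below is of the other 9, which all passed the filter on low counts.

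**Figure D1:**
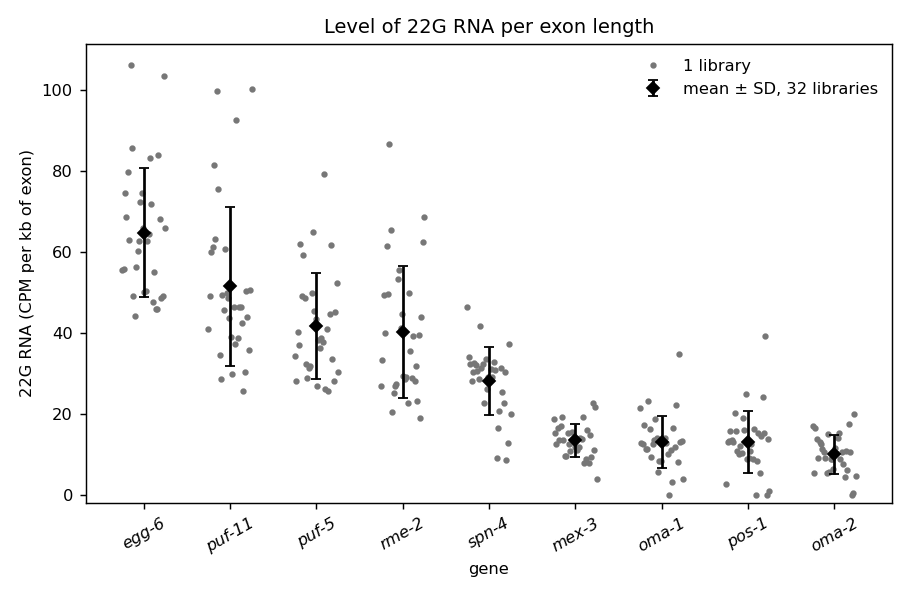
22G RNA per exon length (CPM per kb of exon) for the 9 genes with counts, ordered by their mean. Grey points are single libraries, diamonds the mean with the SD over 32 libraries. egg-6, puf-11, puf-5 and rme-2 average 40 or more CPM per kb, and mex-3, oma-1, pos-1 and oma-2 average 13.4 or less.

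The order of these levels was only in part larger than the spread. egg-6 was above puf-11 in 28 of 32 libraries, and rme-2 was above spn-4 in 23 and spn-4 above mex-3 in 30. puf-5 was above rme-2 in 17 of 32 libraries, mex-3 above oma-1 in 15 and oma-1 above pos-1 in 15, so these neighbours in the order did not differ beyond their spread. The variation over libraries, as the SD in percent of the mean, was 24.6% for egg-6 and 47.7% for oma-2, 49.98% for oma-1 and 59.4% for pos-1. Those last 3 genes rested on totals of 755, 1181 and 734 counts over all libraries, against 10553 for egg-6.

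Some libraries stood apart and touch the results below. Depth was 438436 to 2578063 22G counts per library. In P0 WT normoxia, 22G RNA was 9.27% and 6.15% of the 4 small RNA classes counted, against 14.9% to 45.9% in the other libraries. The F3 hrde-1 normoxia libraries had counts on 7428 and 6356 genes, against 8465 to 14298 in the other 30, and replicate 2 of F2 hrde-1 normoxia held 473558 counts. Between the 2 F3 hrde-1 normoxia libraries the chi-square of gene counts per degree of freedom was 38.3, against 1.95 to 15.4 in the other groups. Among the 9 genes and 32 libraries, a count of 0 occurred 4 times, each time in hrde-1 normoxia: oma-1 and pos-1 in F2 replicate 2, oma-2 in F3 replicate 1 and pos-1 in F3 replicate 2. 22G RNA against 38 spermatogenesis genes, which marks the male part of the germline, summed to 50.8 to 275 CPM in hrde-1 libraries and to 231 to 609 CPM in WT libraries. Its single genes did not share 1 direction: of the 14 that passed the filter on low counts, 0 were higher in hrde-1 and 1 lower under normoxia (7 positive and 7 negative log2 changes), and 6 were higher and 1 lower with the hypoxia label (13 positive, median 2.11). 22G RNA against 14 genes of intestine, muscle, neuron and epidermis summed to 16.0 to 179 CPM in hrde-1 and 43.5 to 106 CPM in WT, and of the 8 that passed the filter 0 were higher and 1 lower in hrde-1 under normoxia and 1 was higher and 1 lower with the hypoxia label. The part of these differences in the results was not tested, and in whole worms fewer germ cells and less small RNA per cell cannot be told apart. hrde-1 itself had 245 to 689 CPM of 22G RNA, and its count does not check the genotype, since the files do not give the part of the gene that is mutated.

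**Figure D2:**
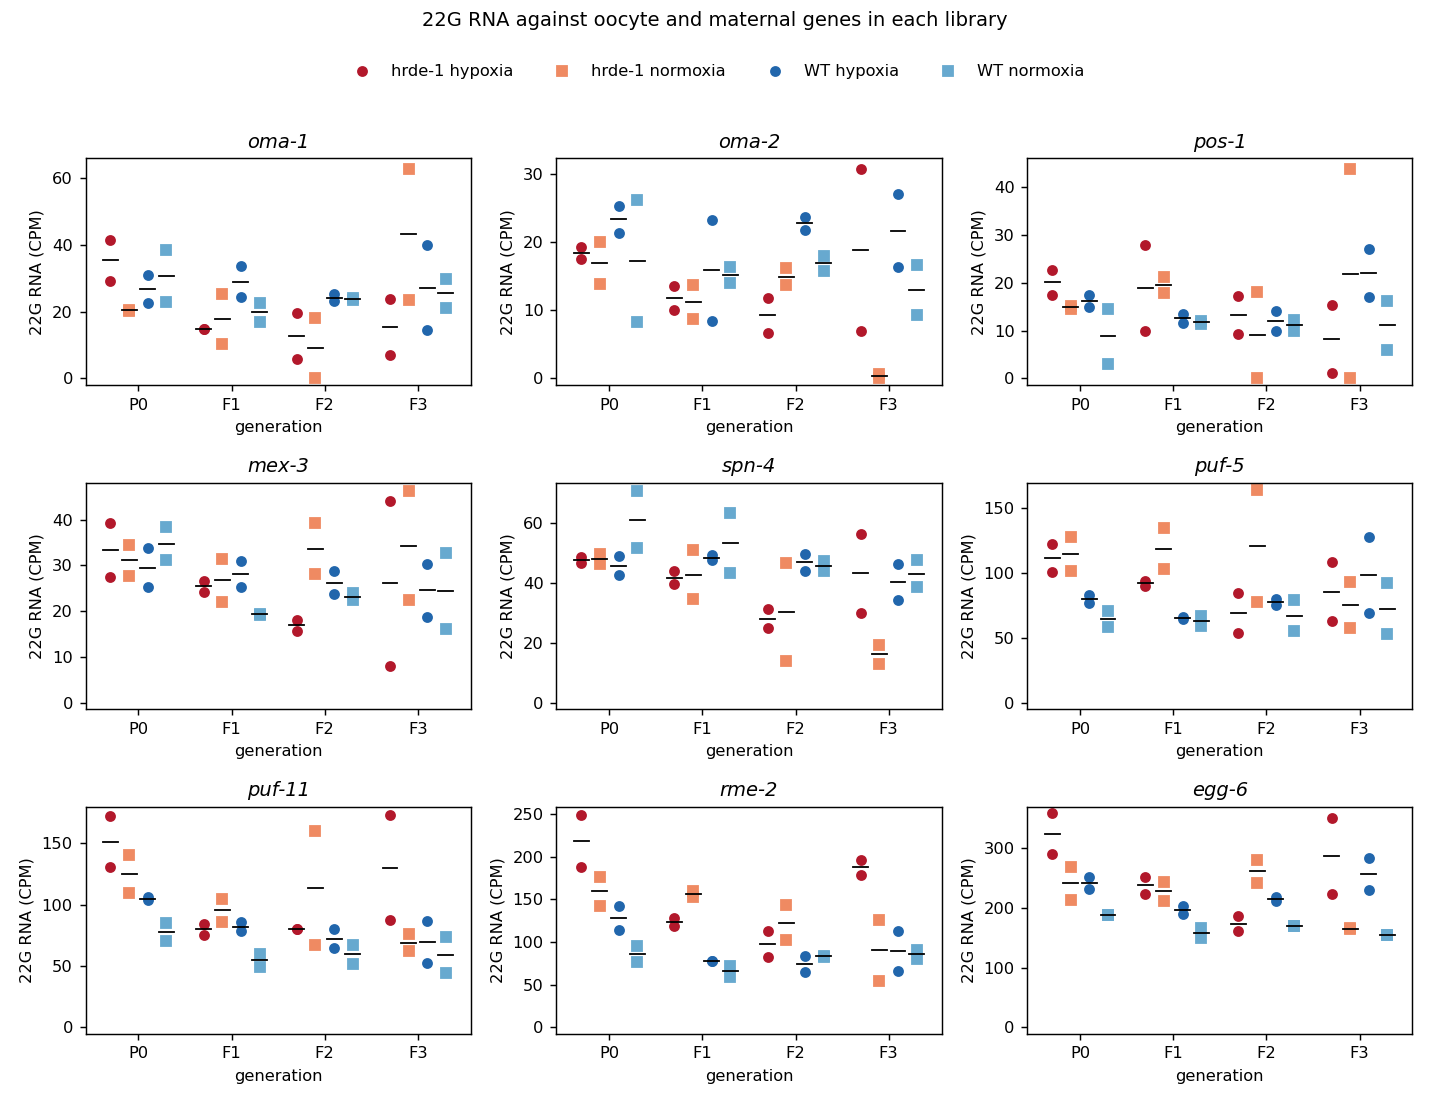
CPM of 22G RNA in each library (points) and group means (bars), with generation on the x axis; within a generation the groups run hrde-1 hypoxia, hrde-1 normoxia, WT hypoxia, WT normoxia. In WT the hypoxia points of egg-6 lie above the normoxia points in all 4 generations, and oma-2 in F3 hrde-1 normoxia lies at 0 and 0.573 CPM.

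The first comparison asks whether loss of HRDE-1 changes 22G RNA against these genes without hypoxia. Under normoxia, with the 4 generations together (8 hrde-1 against 8 WT libraries), rme-2, puf-11, puf-5 and egg-6 were higher in hrde-1 and no gene was lower. That is 4 of 9 genes higher, where 11.7% of the 9279 genes tested were higher and 16.3% lower. The median log2 change was 0.37 over the 9 genes and -0.18 over all genes tested. The genes were chosen with earlier results known, so this contrast describes the 9 and does not test oocyte genes as a class.

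rme-2 had 54.2 to 176 CPM in hrde-1 (median 142.4), against 58.5 to 95.4 CPM in WT (median 81.2). The highest WT library lay below 7 of the 8 hrde-1 libraries, and the exception was replicate 1 of F3. The log2 change was 0.67 ± 0.20 (SE; adjusted p = 0.0166, edgeR). puf-11 had 61.9 to 160 CPM in hrde-1 (median 95.3), against 44.3 to 85.1 CPM in WT (median 63.5), a change of 0.64 ± 0.20 (adjusted p = 0.0204, edgeR). puf-5 had 57.9 to 164 CPM in hrde-1 (median 102), against 53.1 to 92.2 CPM in WT (median 63.2), a change of 0.62 ± 0.21 (adjusted p = 0.0294, edgeR). The ranges of both Pumilio genes overlapped. egg-6 had 164 to 281 CPM in hrde-1 (median 228), against 149 to 189 CPM in WT (median 168), a change of 0.37 ± 0.13 (adjusted p = 0.0342, edgeR), and the ranges overlapped through the hrde-1 libraries of F3.

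The other 5 genes did not pass the test. spn-4 averaged 34.4 ± 16.5 CPM in hrde-1 and 50.9 ± 10.9 CPM in WT (SD, n = 8 each), a log2 change of -0.66 ± 0.25 with an edgeR adjusted p of 0.0558. oma-1, oma-2, pos-1 and mex-3 had log2 changes of -0.29 ± 0.43, -0.99 ± 0.59, 0.58 ± 0.67 and 0.30 ± 0.26. Without the P0 libraries the count of 4 became 0, with rme-2 at 0.62 ± 0.25 and an edgeR adjusted p of 0.0923. With the sum of the 4 small RNA classes as library size it was 0 as well, with rme-2 at 1.06 ± 0.46. Leaving out each of the 16 libraries in turn kept the call of rme-2 every time, that of puf-11 in 14 cases and those of puf-5 and egg-6 in 8 each, with 2 to 4 genes called.

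Single generations gave fewer calls with 2 libraries a side. In F1, rme-2 was higher in hrde-1, with 153 and 159 CPM in hrde-1 and 58.5 and 72.2 CPM in WT, a log2 change of 1.25 ± 0.32 (adjusted p = 0.00678, edgeR); 6.44% of the 10121 genes tested were higher there and 6.87% lower. Without replicate 1 of F1 WT normoxia the adjusted p was 0.101. None of the 9 genes passed the test in P0, where 10.5% of genes did, or in F2, where 12.7% did. At an unadjusted p under 0.05 there were 2 and 3, against 1959 and 2350 of 10121 genes. DESeq2 called 0 in P0 and 1, egg-6, in F2. The numbers of the 9 genes called by edgeR come from the fit of all 32 libraries. Without the F3 libraries they were 1 in P0, 4 in F1 and 3 in F2. The share of all genes called in those fits is not given here, so these counts cannot be set against a background. rme-2 changed by 0.89 ± 0.33 in P0 and 0.58 ± 0.32 in F2 (edgeR adjusted p of 0.093 and 0.291). Its hrde-1 libraries did not overlap WT in P0, F1 and F2, with 2 libraries a side. This was not particular to rme-2. egg-6 was also separated in each of these generations, and pos-1, puf-5 and puf-11, among others, in P0 and F1. The share of all genes separated in this way is not given here, so the separation is only a description. In F3 rme-2 had 54.2 and 126 CPM in hrde-1, on both sides of the 80.5 and 91.0 CPM in WT.

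Among libraries with a hypoxia label (8 hrde-1 against 8 WT), rme-2 was again higher in hrde-1, and it was the only gene of the 9 to pass the test. rme-2 had 82.6 to 248 CPM in hrde-1 (median 154), against 64.9 to 141.5 CPM in WT (median 80.8), a log2 change of 0.75 ± 0.14 (adjusted p = 0.000256, edgeR). These libraries are none of those in the normoxia comparison, and the call held when each of the 16 libraries was left out in turn. Of the 9213 genes tested, 18% were higher and 20.1% lower, so 1 of 9 is not above that background. puf-11 had a log2 change of 0.41 ± 0.17 (adjusted p = 0.0598, edgeR), puf-5 one of 0.18 ± 0.17 and egg-6 one of 0.16 ± 0.13, and none of these passed the test. With DESeq2 puf-11 was called as well, for 2 genes in all. With the 4 classes as library size 4 genes were called, rme-2 higher and oma-1, oma-2 and spn-4 lower, while the median of all genes was -0.37 in place of -0.02.

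**Figure D3:**
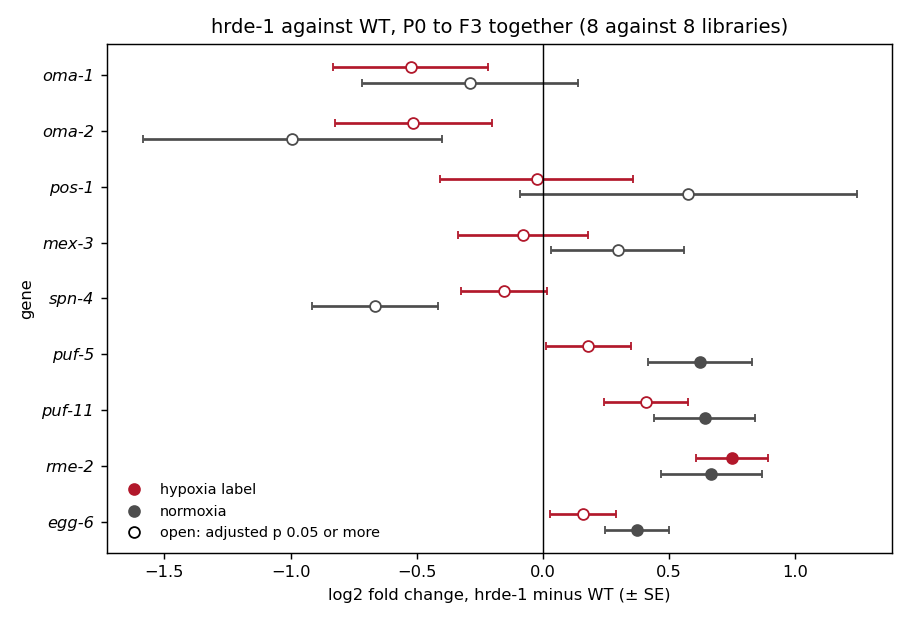
Log2 fold change of 22G RNA in hrde-1 against WT (x axis, ± SE) with the 4 generations together, 8 against 8 libraries, for each gene under the hypoxia label (red) and under normoxia (grey). Filled points have an adjusted p below 0.05; rme-2 is filled in both rows, at 0.75 and 0.67.

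The next comparison asks whether 22G RNA against these genes differs in descendants with a hypoxia label. In WT over F1 to F3 (6 against 6 libraries), egg-6 was higher with the hypoxia label and no other of the 9 genes passed the test. The 6 libraries a side may be generations of the same line and so may not be independent. egg-6 had 190 and 203 CPM in F1, 212 and 218 CPM in F2 and 284 and 230 CPM in F3 with the hypoxia label, against 166 and 149, 169 and 170, and 155 and 155 CPM under normoxia. Every hypoxia library lay above every normoxia library, and the share of all genes separated like this is not given here. The means were 223 ± 32.8 CPM with the hypoxia label and 161 ± 8.91 CPM under normoxia (SD, n = 6 each), a log2 change of 0.46 ± 0.10 (adjusted p = 0.0171, edgeR). Of the 8485 genes tested, 1.38% were higher and 3.25% lower.

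In WT at P0, egg-6 had 252 and 232 CPM with the hypoxia label and 187 and 189 CPM under normoxia. With 2 libraries a side, such separation was not particular to egg-6 there. pos-1, puf-5, puf-11 and rme-2 were also separated in this direction, and spn-4 in the other. Here too the share of all genes so separated is not given. Within each generation its log2 change was 0.36 ± 0.22 (P0), 0.32 ± 0.22 (F1), 0.34 ± 0.21 (F2) and 0.73 ± 0.21 (F3), and none of these passed the test alone (edgeR adjusted p of 0.896, 1, 1 and 0.125). The call over F1 to F3 held when each of the 12 libraries was left out in turn (edgeR adjusted p of at most 0.0485). Without the F3 libraries the log2 change was 0.33 ± 0.10 and the edgeR adjusted p 0.0550.

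The other 8 genes had log2 changes of -0.07 to 0.42 over F1 to F3 in WT. puf-11 averaged 74.7 ± 13.5 CPM with the hypoxia label and 57.6 ± 11.2 CPM under normoxia (SD, n = 6 each), a change of 0.36 ± 0.16 with an edgeR adjusted p of 0.212. rme-2 had 64.9 to 113.3 CPM (median 77.6) with the label and 58.5 to 91.0 CPM (median 81.2) under normoxia, a change of 0.04 ± 0.14. The median over the 9 genes was 0.24, against -0.01 over all genes. In F1, F2 and F3 alike, 8 of the 9 log2 changes in WT were positive. Over all 10121 genes 4958, 4853 and 4564 were positive, and of the 51 other oocyte and maternal genes described below 41, 38 and 35. The negative one of the 9 was spn-4 in F1 and F3 and rme-2 in F2. No gene of the 9 passed the test in a single WT generation. Of all genes, 0.702% did in P0, 0.168% in F1, 0% in F2 and 0.346% in F3. At an unadjusted p under 0.05 there was 1, egg-6 in F3, where 1293 of 10121 genes had one. DESeq2 called egg-6 there.

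In hrde-1 over F1 to F3, none of the 9 genes passed the test, against 0.176% of the 8523 genes tested, and DESeq2 called none. None of the 9 had an unadjusted p under 0.05, against 664 of the 8523. egg-6 had 161 to 350 CPM with the hypoxia label (median 223), against 164 to 281 CPM under normoxia (median 227), and its log2 change was 0.10 ± 0.22. The order of its groups differed between generations. In F2 it had 161 and 186 CPM with the hypoxia label and 281 and 242 CPM under normoxia, and in F3 350 and 223 CPM with the hypoxia label and 164 and 166 CPM under normoxia. The difference between the responses of hrde-1 and WT over F1 to F3 was -0.37 ± 0.18 for egg-6 (adjusted p = 0.20, edgeR), and none of the 9 genes passed that test, against 8.61% of all genes. At an unadjusted p under 0.05 there were 2 of the 9, which is not above the 2303 of 10121 genes that had one. DESeq2 called 0 of the 9.

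**Figure D4:**
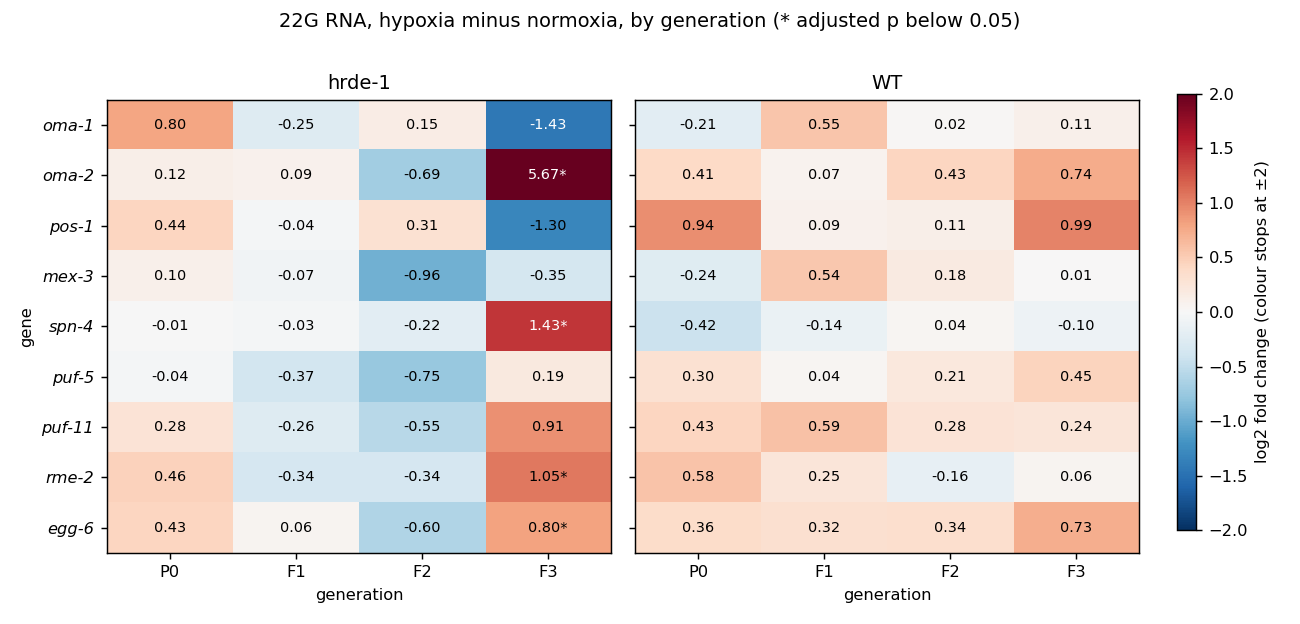
Log2 fold change of 22G RNA, hypoxia label minus normoxia, for each gene (rows) and generation (columns) in hrde-1 (left) and WT (right), 2 against 2 libraries each. Stars mark an adjusted p below 0.05, and the 4 stars, for oma-2, spn-4, rme-2 and egg-6, all lie in hrde-1 at F3.

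In hrde-1, P0, F1 and F2 gave no call among the 9 genes (0.711%, 0.346% and 0% of all genes) and 0 by DESeq2, and F3 gave 4. P0, F1 and F2 had 0, 0 and 1 at an unadjusted p under 0.05, against 613, 715 and 837 of 10121 genes. oma-2, spn-4, rme-2 and egg-6 were higher with the hypoxia label at F3, where 15.2% of the 10121 genes tested were higher and 6.33% lower. oma-2 had 44 and 6 counts (30.7 and 6.97 CPM) with the hypoxia label, against 0 and 1 counts (0 and 0.573 CPM) under normoxia. The ratio of the summed counts was 73.5, with an exact 95% counting interval of 12.6 to 2960, which leaves out the spread between libraries. The fitted log2 change of 5.67 ± 1.02 depends on the near-zero group (adjusted p = 0.000420, edgeR). spn-4 had 56.6 and 30.2 CPM with the hypoxia label, against 12.9 and 19.5 CPM under normoxia, a change of 1.43 ± 0.42 (adjusted p = 0.0193, edgeR). rme-2 had 179 and 196 CPM with the hypoxia label, against 54.2 and 126 CPM under normoxia, a change of 1.05 ± 0.32 (adjusted p = 0.0204, edgeR), and egg-6 changed by 0.80 ± 0.22 (adjusted p = 0.0112, edgeR).

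The F3 hrde-1 calls rest on single libraries and on the fit over all 32 libraries, which shares 1 estimate of the spread. Without replicate 1 of F3 hrde-1 hypoxia the adjusted p of spn-4 was 0.237 and that of egg-6 0.218; without replicate 2 of that group or replicate 1 of F3 hrde-1 normoxia rme-2 was not called, with an adjusted p of up to 0.141 (edgeR). In a fit of only the 4 libraries compared, none of the 9 genes was called, and neither was any of the 6954 genes tested.

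The same F3 hrde-1 normoxia libraries enter the comparison of genotypes at F3, which is therefore not independent. Against WT under normoxia at F3, oma-2 and spn-4 were lower in hrde-1 and none of the 9 genes was higher, where 26.5% of all genes were lower and 8.24% higher, with a median of all genes of -0.45. oma-2 had 0 and 1 counts in hrde-1, against 28 and 15 counts in WT (16.7 and 9.35 CPM). The summed counts were 44.1-fold lower in hrde-1, with an exact 95% counting interval of 7.51 to 1784. That interval holds counting error only and leaves out the spread between libraries. The fitted log2 change was -5.11 ± 1.02 (adjusted p = 0.000407, edgeR). spn-4 had 12.9 and 19.5 CPM in hrde-1, against 47.7 and 38.6 CPM in WT, a log2 change of -1.41 ± 0.42 (adjusted p = 0.0117, edgeR); without replicate 1 of F3 WT its adjusted p was 0.0679. A fit of only these 4 libraries called neither gene. The number of all genes called by that fit is not given here, so this result says little about oma-2 and spn-4.

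Within hrde-1 under normoxia, F3 was set against the mean of P0, F1 and F2. oma-2, spn-4 and egg-6 were lower at F3, 3 of 9 genes, where 19% of all genes were lower and 5.59% higher and the median of all genes was -0.38. oma-2 had 7 to 37 counts (8.66 to 20.0 CPM) in each of the 6 earlier libraries. The summed counts at F3 were 48.97-fold lower than in those libraries (exact 95% counting interval 8.61 to 1951, counting error only). The fitted log2 change was -5.21 ± 0.96 (adjusted p = 0.000427, edgeR). spn-4 changed by -1.32 ± 0.37 (adjusted p = 0.0111, edgeR) and egg-6 by -0.56 ± 0.18 (adjusted p = 0.0261, edgeR), and leaving out single libraries ended the call of spn-4 in 1 of 8 cases and that of egg-6 in 4 of 8. oma-1 ran the other way, with 62.8 and 23.5 CPM at F3 and 0 to 25.2 CPM before, a log2 change of 1.43 ± 0.55 that did not pass edgeR's test (adjusted p = 0.0571). pos-1 had 43.7 CPM in replicate 1 and a count of 0 in replicate 2 at F3. In WT under normoxia none of the 9 genes passed the same test, against 0.306% of all genes, and DESeq2 called 0. None of the 9 had an unadjusted p under 0.05, against 555 of 10121 genes.

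The response of hrde-1 minus that of WT differed from 0 at F3 for oma-2, by 4.94 ± 1.24 on the log2 scale (adjusted p = 0.0108, edgeR), where 9.67% of genes were higher and 2.28% lower; without replicate 1 of F3 hrde-1 hypoxia the adjusted p was 0.0839. In P0, F1 and F2 none of the 9 genes passed this test (0.0593%, 0.0889% and 0% of all genes), and DESeq2 called none. At an unadjusted p under 0.05 there were 0, 0 and 1, against 282, 619 and 630 of 10121 genes.

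Over the 16 group means of log2 CPM the Pearson r of the paralogs oma-1 and oma-2 was -0.16, while oma-2 and spn-4 had an r of 0.79. F3 hrde-1 normoxia held the highest group mean of oma-1 (43.1 CPM) and the lowest of oma-2 (0.287 CPM) and of spn-4 (16.2 CPM). How far both r values rest on that group was not tested. The r was 0.91 for puf-11 and rme-2, 0.84 for puf-11 and egg-6 and 0.80 for rme-2 and egg-6. puf-5 had an r of 0.77 with egg-6, 0.75 with rme-2 and 0.68 with puf-11. The groups share scaling and depth, so these values are descriptions. Each of the 9 had an r of -0.03 (oma-1) to 0.65 (egg-6) with the mean of the others, so a mean profile describes them only in part. The 5 other genes whose group means were most like the mean profile of the 9 were klp-16 (r of 0.91), ptc-1 (0.90), syp-4 (0.90), jhdm-1 (0.86) and acl-5 (0.85). These are the highest values among the 10121 genes that passed the filter, the 9 left out, and high values arise in such a search.

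Other oocyte and maternal genes were counted from a list of 55, of which 54 matched the annotation and 51 passed the filter in the comparisons of genotypes. Under normoxia 9 of 51 were higher in hrde-1 and 3 lower, where 11.7% of all genes tested were higher and 16.3% lower. The median log2 change was 0.09 over the list and -0.18 over all genes. egg-5 and egg-4, which encode the paired pseudophosphatases of the egg-to-embryo transition, averaged 234 ± 57.7 and 148 ± 45.2 CPM in hrde-1, against 98.3 ± 20.9 and 65.4 ± 20.1 CPM in WT (SD, n = 8 each). Their log2 changes were 1.23 ± 0.16 and 1.19 ± 0.22. Whether egg-4 and egg-5 share reads was not searched here, so they may not be separate observations. mex-1, a CCCH zinc-finger gene, and lin-41, an oocyte TRIM-NHL gene, were also higher, by 0.95 ± 0.25 and 0.93 ± 0.26. The lower genes were pal-1, the maternal Caudal homolog, by -2.28 ± 0.66, ooc-3 by -0.72 ± 0.18 and chs-1, the eggshell chitin synthase, by -0.67 ± 0.20. puf-3, the near-identical copy of puf-11, was higher by 0.73 ± 0.25, at 59.5 ± 23.2 CPM in hrde-1 and 35.0 ± 7.43 CPM in WT; it is named here as that copy.

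With the hypoxia label 9 of 51 were higher in hrde-1 and 7 lower, where 18% of all genes tested were higher and 20.1% lower, so these counts are not above that background. The median was 0.19 over the list and -0.02 over all genes. mex-1, cpg-2, which encodes an eggshell proteoglycan, egg-5 and puf-3 were higher by 0.84 ± 0.18, 0.72 ± 0.18, 0.71 ± 0.12 and 0.63 ± 0.17. pal-1, glp-1, the Notch receptor of germline stem cells, chs-1 and ooc-3 were lower by -1.83 ± 0.51, -0.81 ± 0.15, -0.80 ± 0.16 and -0.74 ± 0.14. In WT over F1 to F3, 2 of 51 were higher with the hypoxia label and none lower, where 1.38% of all genes were higher and 3.25% lower. egg-4 had 110 ± 34.1 CPM with the label and 63.1 ± 20.7 CPM under normoxia, and egg-5 171 ± 24.5 and 102 ± 23.7 CPM (SD, n = 6 each). Their log2 changes were 0.81 ± 0.18 and 0.77 ± 0.12. The caution on reads shared by egg-4 and egg-5 applies here as well. In hrde-1 over F1 to F3 none of the 50 genes tested was called, against 0.176% of all genes. Of the 50, 3 had an unadjusted p under 0.05, against 664 of 8523 genes. The median was 0.08 over the list and 0.09 over all genes.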

How the data were processed

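The deposited table gives 22G RNA counts per gene and library, made by the authors. The tools named in the submitters' processing notes are cutadapt 2.5, FastQC, edgeR and featureCounts. Aligner, build, annotation and strand are not given in the sources used here. Overlapping genes and near-identical copies may share counts. Counts were whole except in F2 WT normoxia, where 24.5% and 23.6% of the deposited values were fractions (multiples of 1/3); the values the authors deposited there were treated as estimated counts and rounded. The 5 summary entries (28.1% to 36.0% of all reads) were left out. Gene symbols, positions and exon lengths came from the WBcel235 annotation, which matched 46919 of 46932 identifiers.

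Libraries were scaled by TMM, and edgeR 4.0.16 (R 4.3.3) gave quasi-likelihood F tests (robust fit, filterByExpr by group, minimum count 10), with Benjamini-Hochberg adjustment over all genes tested and a threshold of 0.05. The genotype was compared over P0 to F3 (8 against 8 libraries) and the hypoxia label over F1 to F3 (6 against 6), with generation as a term. Single generations, trends and differences of responses came from 1 fit with 16 group means. The test was tried on simulated counts with known changes. Alternatives were DESeq2 1.42.0 (Wald test, and its size factors), the sum of the 4 class tables as library size, no filter, a replicate block, fewer generations and leaving out each library, which kept the genes tested.

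The 10 genes and the lists were chosen with earlier results of these data known. Besides the 10, the text names up to 4 called genes per direction of the list of other oocyte and maternal genes in each comparison over several generations. It also names the genes of that list with no count and the 5 genes with the most similar group means. Genes that share stretches of sequence with the 10 were not searched here. ssp-9 matched 2 identifiers and was left out.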

Additional observations from a re-analysis of the deposited data

Results flagged for a closer look

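Far libraries were looked for in 36 sets, each of 1 gene in the 8 libraries of a genotype and oxygen label; chance marks about 1 set in 20, and the sets span 4 generations. 4 values stood apart. oma-1 in F3 hrde-1 normoxia replicate 1 was 62.8 CPM, with the next of the 8 libraries at 25.2 CPM. In WT with the hypoxia label, replicate 1 of F3 was the far library for 3 genes: puf-5 at 128 CPM (next 83.2 CPM), pos-1 at 27.1 CPM (next 17.4 CPM) and spn-4, the lowest, at 34.3 CPM (next 42.8 CPM). That library had counts on 9019 genes, the fewest of the WT libraries.

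The response of oma-2 to the hypoxia label differed between the genotypes at F3, by 4.94 ± 1.24 on the log2 scale. In hrde-1 the counts were 44 and 6 with the label and 0 and 1 under normoxia, and in WT 67 and 26 with the label and 28 and 15 under normoxia.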

How the results depend on the processing

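The counts below are of the 9 genes, called by an adjusted p under 0.05, and the cause of a change was not tested unless the setting itself shows it. Where no number for all genes stands beside a count, the count cannot be set against a background. With the sum of the 4 small RNA classes as library size, 22G RNA is read against the other classes, and the low 22G share of P0 WT normoxia moves the median of all genes: to 2.70 for hypoxia minus normoxia in WT at P0 (9 called), to 1.97 for hrde-1 minus WT at P0 (6 called) and to -2.32 for the difference of responses at P0 (4 called). Against those shifts, WT at P0 had oma-1 at 2.41, mex-3 at 2.41 and spn-4 at 2.23 (negative with TMM), hrde-1 minus WT at P0 had mex-3 at 1.81 and spn-4 at 1.61 (negative with TMM), and the difference at P0 had egg-6 at -2.25 (0.07 with TMM). With the same setting hrde-1 minus WT over P0 to F3 gave 0 under normoxia, where the genes called split into 674 higher and 621 lower (1083 and 1515 with TMM) and the median was 0.18, and 4 with the hypoxia label (954 higher and 2925 lower over all genes, 1659 and 1850 with TMM). WT over F1 to F3 split into 223 higher and 106 lower (117 and 276 with TMM) with a median of 0.19, and egg-6 was still called. At P0, 7494 genes were higher and 2 lower with the label in WT (17 and 54 with TMM) and 4916 higher and 104 lower in hrde-1 against WT (685 and 376 with TMM); in F2 the split of hrde-1 against WT was 254 and 1141 (530 and 752 with TMM). Hypoxia in hrde-1 at F3 gave 1 and the F3 trend in hrde-1 gave 1.

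Without the filter, hrde-1 minus WT under normoxia gave 1 and hypoxia in hrde-1 at F3 gave 2. Without the P0 libraries hrde-1 minus WT under normoxia gave 0, and without the F3 libraries hypoxia in WT over F1 to F3 gave 0 while hrde-1 minus WT under normoxia gave 1 in P0, 4 in F1 and 3 in F2. With the difference of responses over F1 to F3 the setting without F3 was chosen after seeing the data and gave 0, as with F3. In fits of only the libraries compared, hypoxia in hrde-1 at F3, hrde-1 minus WT at F3 and the difference of responses at F3 gave 0, while hrde-1 minus WT gave 3 in P0 and 4 in F1. DESeq2's test gave 2 for hrde-1 minus WT with the hypoxia label, 1 for WT at F3, 1 for hrde-1 minus WT at F2 and 2 for the difference at F3; its size factors gave 2 for hrde-1 minus WT with the hypoxia label.

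Same-numbered libraries did not deviate together (correlations of -0.04 to 0.04 over 16 pairs of groups), so no pairing by number was seen. These correlations are over all genes that passed the filter, and they cannot decide whether the numbers mark shared cultures. With the replicate number as a block hrde-1 minus WT at F1 gave 2, hrde-1 minus WT under normoxia over P0 to F3 gave 3, and hypoxia in hrde-1 at F3 gave 3; no other count of calls differed under the block. The block was not run for the trends of F3 against P0 to F2, since the labels give no link between the numbers of different generations.

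Leaving out each library in turn assumes that a lone remaining library varies like the other groups. It gave 2 to 4 for hrde-1 minus WT under normoxia, 1 to 3 with the hypoxia label, 3 to 6 for hypoxia in hrde-1 at F3, 0 to 1 for hrde-1 minus WT in F1, 0 to 3 in F2 and 1 to 3 in F3, 0 to 4 for the difference at F3 and 0 to 1 over F1 to F3, and 2 to 5 for the F3 trend in hrde-1. pos-1, not called with all libraries, turned without replicate 1 of F3 hrde-1 normoxia, the library of that group with its counts: its log2 change over libraries left out ran from -4.13 to 6.73 for hypoxia in hrde-1 at F3, from -7.02 to 1.98 for hrde-1 minus WT at F3 and from -7.45 to 2.90 for the F3 trend. Rounding down the fractional counts and taking the longest transcript as length moved no level beyond its SD. Depth limits the low genes: oma-2, pos-1 and oma-1 had at most 67, 71 and 112 counts in a library.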
